A study of Mus musculus with 5 samples.

Results

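The fragments described here are restriction fragments of the mouse genome that hold few CpG sites and were mostly unmethylated in a mixed population of CD8+ T cells. A CpG is a cytosine followed by a guanine, the site at which mammalian DNA carries most of its methylation. Members were chosen by 4 conditions: 2 to 4 CpGs, at least 10 molecules with a call in each of 2 clones, at least 5 molecules on the odd and on the even lines of the population's file, and a methylation level under 20% on the odd lines. The level is the percentage of CpG calls on a fragment that were methylated. Of 71026 fragments with 2 to 4 CpGs that met the molecule minimums, 3583 (5.04%) were members, out of 160499 fragments with 2 or more CpGs in the series. They comprised 682 fragments with 2 CpGs, 1193 with 3 and 1708 with 4. The odd lines chose the members, so the population's level is given from the even lines, which are other molecules of the same library and not a replicate.

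DNA came from primary CD8+ T cells of C57BL/6 mice with no genetic change named in the labels. The cells were naive when purified from splenocytes, grew with IL2, a T cell growth factor, and were sorted with antibodies to CD3 and CD28. The non-clonal population was 1 sample. Clone 1 and clone 2 each grew from a single sorted cell, with 15 cell divisions in the labels, and had 2 replicates that share 1 deposited file. Each clone therefore entered as 1 pooled library that stands for 1 founder cell, with no spread between replicates. Intervals and p-values below cover counting error and compare libraries, not conditions. The population's library held 8463942 molecules, that of clone 1 held 11969176 and that of clone 2 held 8977287. A member had a median of 11 molecules on the population's even lines, from 5 to 29. The medians were 24 for clone 1 (10 to 67) and 21 for clone 2 (10 to 68). The labelled cell type could not be checked, because the files name no genes.

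In mammals, DNA with few CpGs is usually methylated, and CpG-rich islands at gene starts are usually not. DNMT1 copies methylation onto the new strand at each cell division, DNMT3A and DNMT3B add it to unmethylated sites, and TET enzymes oxidise it, which leads to its removal. CpG-poor DNA with little methylation is found at the edges of islands and at enhancers and other sites bound by transcription factors. A clone shows what 1 cell and its descendants carried, where a population shows the average over many cells.

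The enzyme MspI, which cuts at CCGG with or without methylation of the inner CpG, set the ends of the fragments. On all fragments with 2 to 4 CpGs, reads from the plus strand observed the first CpG in 78.4 to 79.6% of molecules by library and the last in 0.735 to 2.65%. On the minus strand the first CpG was observed in 0.720 to 2.51%. No fragment in the files had 1 CpG. Across the series, the last CpG of a fragment and the first CpG of the fragment with the next number were compared where each had at least 10 calls, in 10515 population pairs and in 13974 and 9725 pairs of clones 1 and 2. Their levels correlated at r = 0.961 in the population, and at 0.972 and 0.967 in clones 1 and 2. The same comparison with the number after that gave 0.764, 0.744 and 0.775, over 9787, 12155 and 7625 pairs. These are correlations across fragments of 1 library each. The outer CpGs are accordingly treated here as the cut sites, read from one side by a member and from the other by its neighbour. A member with 2 CpGs then holds only its ends, 1 with 3 CpGs has a single inner site, and 1 with 4 has a pair of inner sites.

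In each of the 3 libraries the median member was nearly free of methylation, and a minority of members carried high levels in a clone. The median level was 4.55% on the population's even lines, 3.85% in clone 1 and 4.65% in clone 2. The means were 8.33% (SD over members 11.0), 11.97% (SD 16.8) and 12.9% (SD 17.6). The medians therefore lay close together while the means and the spread over members were larger in the clones. The level reached 50% in 30 members (0.837%) on the even lines, in 188 (5.25%) in clone 1 and in 206 (5.75%) in clone 2. Levels of at least 80% were found in 3, 10 and 18 members. At the other end, 535 members had no methylated call on the even lines or in either clone. The level was 0 in 1460 members on the even lines, 1150 in clone 1 and 1153 in clone 2.

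The few high members held a large share of the methylation seen. Members at 50% or more held 2.93% of all methylated calls on the even lines, 25.9% in clone 1 and 26.0% in clone 2. Counted over molecules, 1747 of 38755 (4.51%, 95% Wilson interval 4.31 to 4.72) were methylated on the even lines, where a molecule counts as methylated when more than 50% of its observed CpGs are. In clone 1 the count was 7369 of 90503 (8.14%, interval 7.97 to 8.32), and in clone 2 it was 6592 of 79714 (8.27%, interval 8.08 to 8.46). Neither clone's interval overlapped that of the even lines. The odd lines of the same library, which chose the members, had 2.72% (interval 2.56 to 2.89). That interval did not overlap the one of the even lines either. The intervals treat molecules as independent, although many come from the same fragment. The even lines share cells and library with the lines that chose the members, and the clones do not; how far this sets the difference was not tested.

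Libraries differ in molecules per fragment, so the distribution was also computed at an equal depth of 5 molecules per member, as the expected result of drawing 5 of those observed. None of the 5 molecules was methylated in 82.6% of members on the even lines, 78.9% in clone 1 and 77.3% in clone 2. Exactly 1 was methylated in 13.0, 11.4 and 12.3%. From 2 methylated molecules upward the order of population and clones turned. At least 3 of 5 were methylated in 1.25, 4.66 and 4.98% of members, and all 5 in 0.0291, 0.463 and 0.565%. By CpG number, the share with at least 3 of 5 was 3.52, 7.84 and 8.70% for members with 2 CpGs, 0.519, 3.25 and 3.42% for 3, and 0.860, 4.37 and 4.59% for 4. Both clones thus exceeded the population in each of these CpG classes. The classes cannot be ranked by these shares, because their molecules hold unlike numbers of calls. Molecules with 2 or more calls were 0.344, 0.330 and 0.503% for members with 2 CpGs, against 79.6, 78.0 and 77.6% for 3. By mean level, clones 1 and 2 had 11.6 and 12.5% at 2 CpGs, and 12.9 and 13.8% at 3.

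**Figure D1:**
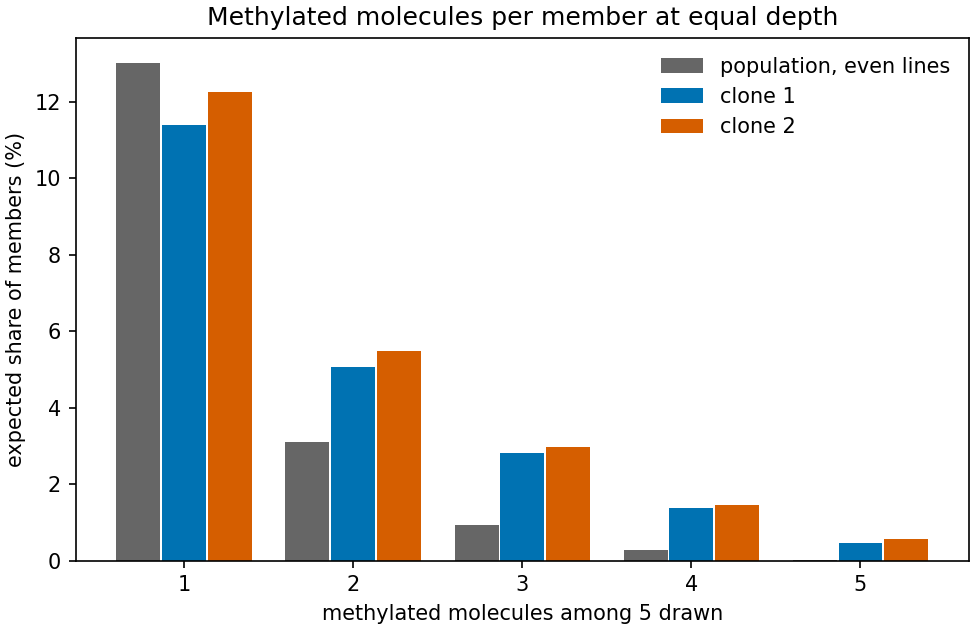
Members by the number of methylated molecules among 5, in percent of members, for the population's even lines, clone 1 and clone 2. The population has the larger share at 1 of 5 (13.0% against 11.4 and 12.3%), and the clones have the larger shares from 2 of 5 up to 5 of 5 (0.463 and 0.565% against 0.0291%).

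The level on the odd lines carried over to the other molecules. The 1539 members without a methylated call on the odd lines averaged 3.61% on the even lines, 4.97% in clone 1 and 5.40% in clone 2, and 21 and 20 of them reached 50% in the clones. The other 2044 averaged 11.9, 17.2 and 18.5%, and 167 and 186 of them reached 50%. On the even lines 481 members (13.4%) lay at 20% or more, although all had been under 20% on the odd lines. In clone 1 that number was 819, and in clone 2 it was 901.

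The members with the most molecules show the range of behaviour. Fragment 331845, with 4 CpGs, had 0 of 17 methylated molecules on the even lines, 1 of 57 in clone 1 and 0 of 51 in clone 2. Fragment 152987, also with 4 CpGs, had 0 of 20, 0 of 59 and 0 of 46. For the latter, Wilson intervals allow at most 16.1, 6.11 and 7.71%. These 2 members were unmethylated at the depth reached, whichever library was read. Fragment 984591, with 2 CpGs, instead had 3 of 19 molecules methylated on the even lines, 15 of 48 in clone 1 and 21 of 54 in clone 2. All its methylated calls were at the last CpG. The first had no call in the population and 2 calls, both unmethylated, in each clone. Fragment 165257, with 2 CpGs, had 1 of 18, 21 of 55 and 2 of 31, so that clone 1 stood above both other libraries. On the 3-CpG members 1432596 (6 of 25, 22 of 67 and 22 of 64) and 1114004 (2 of 29, 3 of 58 and 5 of 59), only the inner CpG was ever called, so these values describe 1 site each. Over all members, 164 in clone 1 and 231 in clone 2 had an outer CpG without calls.

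At the threshold itself the choice was fine. Fragment 981877 lay just inside, at 19.6% on the odd lines, and had levels of 11.4% on the even lines, 49.6% in clone 1 and 5.05% in clone 2. Fragment 1008426, also at 19.6%, had 34.8, 58.9 and 44.2%. Just outside, at 20.0%, fragment 981528 had 20.6, 13.7 and 57.4%, and fragment 117093 had 12.5, 31.5 and 50%. Fragments on either side of the threshold thus reached high levels in a clone.

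Clone 1 was compared with the population to ask where the descendants of 1 cell departed from the mixture. Its level was higher than on the even lines in 1650 members, lower in 1163 and equal in 770, with a mean difference of 3.64 percentage points and a median of 0. Methylated and unmethylated molecules were counted per fragment and compared by Fisher's exact test, and p-values adjusted by Benjamini-Hochberg over all 160499 fragments. A call required an adjusted p below 0.05 together with 20 or more percentage points. The test called 18 members higher and 2 lower. That is 0.502 and 0.0558% of members, against 0.33% of all fragments tested called higher and 0.257% called lower. Members started near 0, so there was little room for a fall. At the median depths, a call needed 16 of 24 methylated molecules (66.7%) against 0 of 11, so smaller rises were not detectable one by one at those depths. Members with more molecules could be called at smaller rises.

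Among members called higher in clone 1, fragment 331717 had the widest difference. It has 4 CpGs and had 0 of 6 methylated molecules on the even lines (Wilson interval 0 to 39.0%). Clone 1 had 42 of 42 (91.6 to 100%) and clone 2 had 11 of 15. Its adjusted p in clone 1 against the population was 0.000228 by Fisher's exact test. The clone's molecules all lay above 50% here, on a base of few population molecules. Fragment 486632 had 0 of 7 on the even lines, 24 of 29 in clone 1, and clone 2 had 11 of 20 (adjusted p 0.0245, same test). Fragment 1434449 had 0 of 8, 25 of 31 and 16 of 38 (adjusted p 0.0158, same test). Fragment 111642, with 3 CpGs, had 0 of 6, 33 of 41 and 10 of 31 (adjusted p 0.0489, same test). Fragment 1256230, which holds only its 2 end CpGs, had 0 of 11, 12 of 15 and 10 of 15 (adjusted p 0.0158, same test). In all 5 of these members clone 2 also had methylated molecules, at shares below those of clone 1.

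The 2 members called lower in clone 1 lay well above 20% on the even lines. Fragment 1581084 had 0 of 8 methylated molecules on the odd lines and 5 of 7 on the even lines, against 0 of 37 in clone 1, and clone 2 had 3 of 38 (adjusted p 0.00852, same test). The lines of the same library that chose it thus differed from those that measured it. They also covered unlike CpGs: the first had no call on the odd lines and 3 of 3 methylated on the even lines. By CpG, clone 1 had 7 of 12, 0 of 35, 0 of 34 and 12 of 16 methylated calls in order. Its 0 of 37 methylated molecules therefore reflects the inner CpGs, and both ends carried methylation. Fragment 731794, with 2 CpGs, had 6 of 14 on the even lines, 0 of 36 in clone 1, and clone 2 had 13 of 41 (adjusted p 0.0387, same test). In clone 2 its methylated calls were all at the last CpG (13 of 27), with 0 of 14 at the first.

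Clone 2 gave a like count on the same population molecules. Its level was higher than on the even lines in 1736 members, lower in 1046 and equal in 801, with a mean difference of 4.53 points and a median of 0. The Benjamini-Hochberg adjusted Fisher's exact test called 14 members higher (0.391% of members, against 0.279% of all fragments tested) and 0 lower (against 0.138%). At an unadjusted p under 0.05 by the same test, 138 of 3583 members were higher and 28 lower. Of all 160499 fragments tested, 5883 were higher and 2771 lower at that threshold. Both clones were compared with the same even lines, so their calls are not independent of each other.

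Fragment 689517, with 4 CpGs, had 0 of 6 methylated molecules on the even lines, 1 of 17 in clone 1, and clone 2 had 13 of 13 (adjusted p for clone 2 0.0174, Fisher's exact test). Fragment 976246 had 3 of 20, 2 of 48 and 39 of 42 (adjusted p 3.85e-05, same test). These 2 members were high in clone 2 only, among the 3 libraries. Fragment 130832, with 2 CpGs, had 2 of 11, 10 of 20 and 20 of 20 (adjusted p 0.00359, same test). These counts describe little beyond its first CpG, because the last had 1, 1 and 0 calls in the same order of libraries. Fragment 701772 had 0 of 13, 12 of 19 and 19 of 24 (adjusted p 0.00336, same test). In the last 2, both clones stood above the population.

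Called higher in both clones were 4 members (0.112% of members, against 0.0598% of all fragments tested), named here because they are few. Fragment 510823 had 0 of 22 methylated molecules on the even lines, 32 of 46 in clone 1 and 20 of 45 in clone 2. Fragment 1418460 had 0 of 13, 34 of 49 and 35 of 43. Fragment 189545 had 1 of 23, 15 of 28 and 24 of 35, and fragment 1091831, with 2 CpGs, had 1 of 18, 17 of 27 and 24 of 33. Their adjusted p-values by Fisher's exact test lay between 5.52e-05 and 0.036, in comparisons that share the same population molecules.

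The direct comparison of the clones used no population molecules beyond those that chose the members and had the most molecules. Of 3583 members, 2389 (66.7%) were under 20% in both clones and 83 were at 50% or more in both. The level reached 50% in clone 1 with under 20% in clone 2 in 39 members, and the reverse held in 42. Across members, the 2 clones' levels correlated at r = 0.631, and they correlated with the even lines at 0.511 and 0.542. The even lines held fewer molecules per member, with a median of 11 against 24 and 21 in the clones. No correlation at equal depth was computed, so these values cannot be ranked. The Benjamini-Hochberg adjusted Fisher's exact test called 59 members higher in clone 1 (1.65% of members, against 1.91% of all fragments tested) and 69 higher in clone 2 (1.93%, against 2.29%). These shares were close to those of the whole series and below them. Between the clones, 9 of 24 molecules (37.5%) against 0 of 21 was enough for a call at the median depths, a lower bar than against the population.

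The called differences were wide. Their median was 47.8 points and their range 26.7 to 94.1. In 87 of the 128 called members the lower clone was under 20% by level, and in 51 of those the other clone was at 50% or more. In 40 both clones were above the population's even lines. The called members comprised 34 with 2 CpGs, 32 with 3 and 62 with 4.

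**Figure D2:**
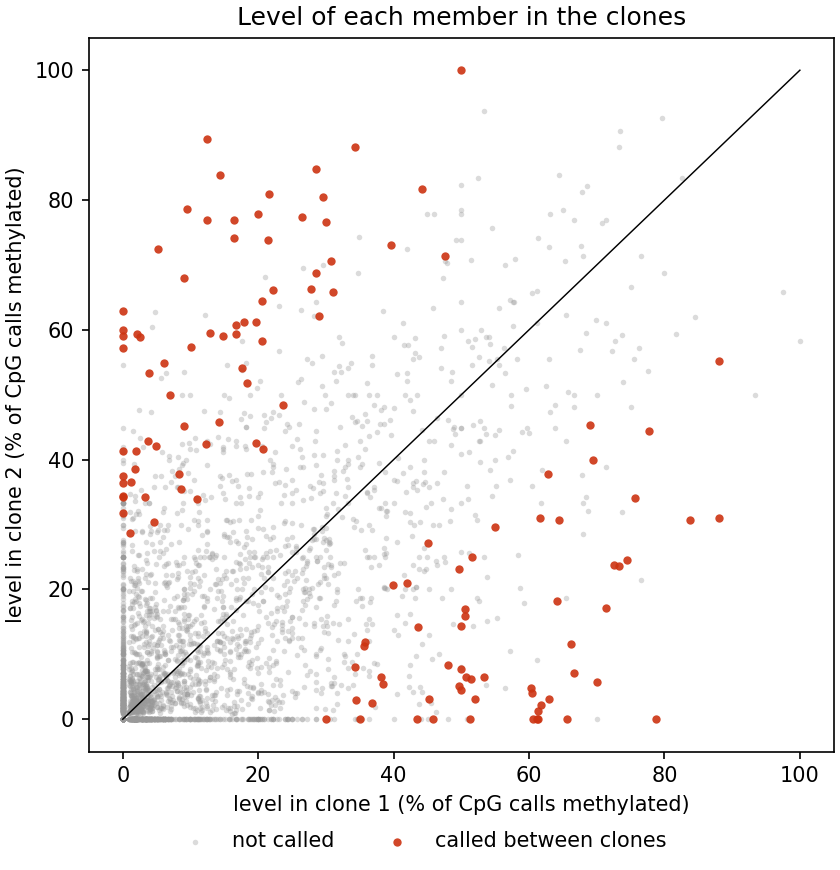
Level of each of the 3583 members in clone 1 (x axis) and clone 2 (y axis), in percent of CpG calls methylated, with the diagonal drawn and the 128 members called between the clones in red. Most points crowd near 0 in both clones, and the called members lie away from the diagonal on both sides, 59 toward clone 1 and 69 toward clone 2.

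Higher in clone 1, fragment 1479265 had 3 CpGs and 0 of 10 methylated molecules on the even lines, 32 of 42 in clone 1, and clone 2 had 0 of 23 (difference 76.2 points, adjusted p 2.05e-07, Fisher's exact test). It was also called against the population, with an adjusted p of 0.00631 by the same test. Fragment 1163507 had 1 of 16, 32 of 50 and 0 of 27 (adjusted p 1.19e-06, same test). Fragment 1137325, with 2 CpGs, had 2 of 14, 21 of 32 and 0 of 16 (adjusted p 0.000528, same test). In these 3 members clone 2 had no methylated molecule. Fragment 560895 had 0 of 14, 20 of 27 and 1 of 11 (adjusted p 0.0201, same test), and fragment 235363 had 0 of 9, 22 of 34 and 0 of 12 (adjusted p 0.00416, same test). At the last CpG of fragment 235363, clone 1 had 11 of 15 methylated calls and clone 2 had 3 of 5. The 0 of 12 methylated molecules in clone 2 do not show this end.

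Higher in clone 2, the widest differences belonged to fragments 689517 (clone 1 minus clone 2, -94.1 points, adjusted p 1.99e-05, Fisher's exact test) and 976246 (-88.7 points, adjusted p 2.04e-15, same test), described above. Fragment 743270 had 2 of 8 methylated molecules on the even lines, 3 of 26 in clone 1, and clone 2 had 22 of 23 (adjusted p 3.72e-07, same test). Fragment 386194 had 2 of 11, 4 of 40 and 30 of 36 (-73.3 points, adjusted p 2.87e-08, same test). Fragment 512749 had 6 of 15, 3 of 27 and 14 of 17 (adjusted p 0.000282, same test), so its population value lay between the clones.

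Single CpGs showed what the level of a whole fragment averages. Where a CpG had at least 10 calls, it reached 50% methylated at 37 of 2719 CpGs on the even lines (1.36%), 933 of 8671 in clone 1 (10.8%) and 822 of 7854 in clone 2 (10.5%). At an equal depth of 5 calls over 7756 CpGs, 0 of 5 calls were methylated at 72.3, 72.4 and 70.5% of CpGs on the even lines, in clone 1 and in clone 2. The unmethylated share was thus nearly the same in the 3 libraries. Intermediate and high CpGs differed: 1 of 5 was methylated at 18.7, 12.2 and 12.9%, and 4 or 5 of 5 at 0.942, 4.98 and 5.52%.

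High CpGs often lay beside low ones on the same member. Among members with at least 2 CpGs of 10 or more calls, 665 in clone 1 and 574 in clone 2 had a CpG at 50% or more. In 442 (66.5%) and 365 (63.6%) of these another CpG of the member was under 10%. All such CpGs were at 50% or more in 50 and 55 members. A member with a high and a low CpG was therefore more common in the clones than a member high throughout.

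Named members showed both forms. In fragment 331717 all CpGs were high in clone 1, with 16 of 17, 37 of 38, 39 of 40 and 25 of 25 methylated calls in order, while clone 2 had 0 of 6 at the first and 11 of 14, 10 of 14 and 6 of 7 at the others. Fragment 1479265 was also high along its length in clone 1. In fragment 976246 clone 2 had 0 of 18, 41 of 41, 39 of 39 and 0 of 23, so both inner CpGs were fully methylated and both ends were not. Clone 1 had 1 of 21, 0 of 45, 28 of 45 and 1 of 24 there, where the site before the last was the methylated one. Its overall level of 22.2% and its 2 of 48 methylated molecules do not show this site. Fragment 743270 in clone 2 had 8 of 13, 21 of 21, 21 of 21 and 0 of 10, while clone 1 had 8 of 12, 2 of 23, 2 of 24 and 0 of 14: the ends were alike and the inner CpGs differed. Fragment 386194 had 17 of 18, 13 of 33, 31 of 32 and 14 of 14 in clone 2, and 15 of 15, 0 of 32, 3 of 35 and 9 of 20 in clone 1. Fragment 981877, one of those near the 20% threshold, had 0 of 16, 1 of 48, 42 of 43 and 20 of 20 in clone 1, a step between its inner CpGs, and 1 of 16, 3 of 35, 1 of 34 and 0 of 14 in clone 2.

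**Figure D3:**
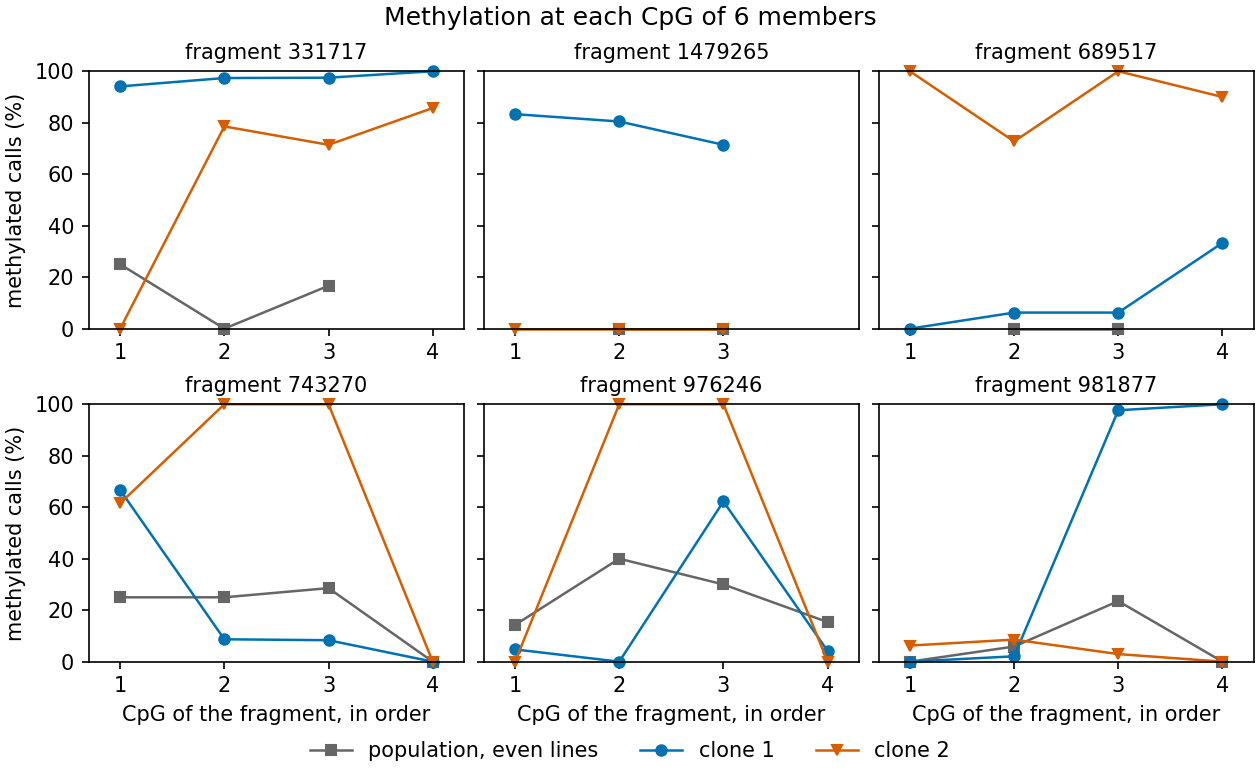
Percentage of methylated calls at each CpG, in order along the fragment, for 6 members in the population's even lines, clone 1 and clone 2. Points with under 4 calls are left out. Fragments 331717, 1479265 and 689517 are high along most of their length in a clone, while 743270, 976246 and 981877 step between adjacent CpGs from near 0 to 97.7% or more.

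A test per CpG reached more members than the test per fragment. This test was added after the data were seen and covered 6147 CpGs of 3034 members among 655804 CpGs in all. The Benjamini-Hochberg adjusted Fisher's exact test called 64 member CpGs higher in clone 1 than in the population, in 57 members, and 5 lower (1.04 and 0.0813% of member CpGs, against 0.38 and 0.27% of all CpGs tested). In clone 2 it called 66 higher in 57 members and 1 lower (1.07 and 0.0163%, against 0.348 and 0.181%). Of the 57 members in each clone, 11 were also called as whole fragments. Between the clones, 241 CpGs in 214 members were higher in clone 1 and 282 in 250 members were higher in clone 2 (3.92 and 4.59%, against 2.74 and 3.05%). The number of members called thus depended on whether the fragment or the CpG was the unit.

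Calls were also read along single molecules. A molecule with at least 2 observed CpGs carried a methylated call in 16.5% of cases on the even lines, 24.6% in clone 1 and 25.3% in clone 2. Among those with a methylated call, every observed CpG was methylated in 353 of 4673 on the even lines (7.55%, Wilson interval 6.83 to 8.35). The clones had 2129 of 16108 (clone 1, 13.2%, 12.7 to 13.7) and 1835 of 14426 (clone 2, 12.7%, 12.2 to 13.3). Most molecules with methylation were therefore mixed in all 3 libraries. After a methylated call, the next CpG on the same molecule was methylated in 23.4% of cases on the even lines (21.9 to 24.9) and in 34.8 and 33.7% in clones 1 and 2, with intervals of 33.96 to 35.7 and 32.9 to 34.6. After an unmethylated call the values were 6.33, 9.45 and 9.93%.

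The patterns of whole molecules repeated. In fragment 976246 in clone 2, 21 minus-strand molecules read as unobserved, methylated, methylated, unmethylated, and 17 plus-strand molecules as unmethylated, methylated, methylated, unobserved. In clone 1, 12 molecules on each strand were methylated at that later inner CpG alone. For fragment 1479265 in clone 1, 15 plus-strand and 14 minus-strand molecules were methylated at both CpGs they covered. The strands were read from separate molecules and gave the same inner CpGs.

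Outer CpGs had higher levels than inner ones on members with 3 or 4 CpGs. The outer CpG nearest the start of a read averaged 9.41% against 6.80% for inner CpGs on the even lines, 14.8 against 11.3% in clone 1 and 14.0 against 12.3% in clone 2. Calls at the far end of a molecule were 0.282, 0.333 and 0.414% of calls. They were methylated in 9.57, 17.9 and 31.9%. The outer and inner levels above already leave them out. Leaving them out of the test per fragment changed no count of called members.

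Outer CpGs could be read a second time on other molecules, those of the neighbouring fragment. Where both readings had at least 5 calls, the member and its neighbour averaged 8.34 and 8.86% at 947 CpGs on the even lines (r = 0.621), 12.6 and 12.3% at 1421 in clone 1 (r = 0.878), and 12.04 and 12.7% at 1203 in clone 2 (r = 0.870). Each r is across CpGs of 1 library and describes likeness only. Of 125 outer CpGs at 50% or more on a member with at least 10 calls in clone 1, 99 were at 50% or more on the neighbour. In clone 2 the count was 63 of 77. Of the 710 and 552 that were under 10% on the member, 0 and 1 reached 50% on the neighbour.

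**Figure D4:**
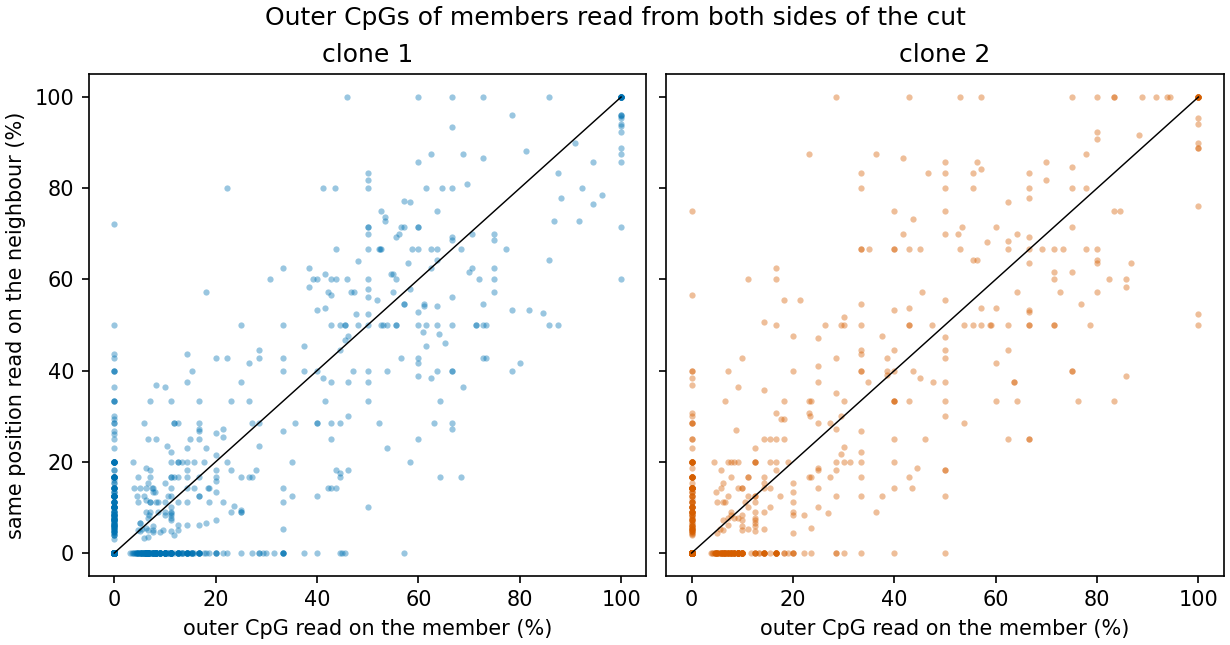
Level of outer CpGs on the member (x axis) and on the neighbouring fragment (y axis), in percent of calls methylated, in clone 1 and clone 2, where both readings had at least 5 calls. Points lie along the diagonal, with r = 0.878 over 1421 CpGs in clone 1 and r = 0.870 over 1203 in clone 2.

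Some named members repeated at this scale, and others did not. The first CpG of fragment 111642 had 20 of 20 methylated calls on the member and 21 of 22 on its neighbour in clone 1, and 10 of 16 and 13 of 19 in clone 2. The first CpG of fragment 331717 was methylated in 14 of 16 calls on the neighbour in clone 1, against 1 of 6 in clone 2 and 0 of 8 on the even lines. The last CpG of fragment 386194 had 9 of 20 methylated calls on the member and 0 of 6 on the neighbour in clone 1, where clone 2 had 14 of 14 and 8 of 9. In clone 1 the last CpG of fragment 1479265 had 15 of 21 and 1 of 4, and that of fragment 235363 had 11 of 15 and 1 of 4. For these 2 fragments the neighbour had fewer than the 5 calls required above.

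Fragments with the number before or after a member were mostly unmethylated as well. Of 7166 neighbour positions, 2911 (40.6%) listed no CpG in the files. Of 2173 neighbours with enough molecules, 1767 (81.3%) were under 20%, 389 at 20 to 80% and 17 above 80%. Their median level was 3.33% and their median CpG number 7, and 18.3% of positions had a neighbour with at least 10 CpGs. Beside methylated fragments with 2 to 4 CpGs, 29 of 16347 neighbours (0.177%) were under 20%, the median level was 93.9%, and 2.78% had at least 10 CpGs. The end CpG that a neighbour shares with a member enters these shares. Without it 80.7% of members' measured neighbours were under 20%, and the levels below leave it out.

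The members' own level rose with that of their neighbours. On the odd lines, 1130 members had neighbours under 5% at the CpGs not shared, and they averaged 3.38% on the even lines, 4.79% in clone 1 and 4.96% in clone 2. The larger of their neighbours had a median of 11 CpGs. At 5 to 20% (503 members) the means were 8.75, 12.6 and 13.9%. At 20 to 50% (248 members) they were 13.6, 20.8 and 22.5%, and at 50% or more (100 members) 19.1, 24.8 and 24.3%. The remaining 1602 had fewer than 10 calls on their neighbours and averaged 10.2, 14.7 and 15.9%. Levels of 50% or more were reached in clone 1 and clone 2 by 13 and 15 of the 1130 members with neighbours under 5% (1.15 and 1.33%), and by 29 and 32 of the 248 with neighbours at 20 to 50% (11.7 and 12.9%). Clones exceeded the even lines by 1.41 and 1.57 points beside the lowest neighbours and by 7.21 and 8.84 points at 20 to 50%. The odd lines set both the members and these classes. Odd lines minus even lines was -0.795, -2.47, -4.46 and -8.97 points from the lowest class up. Among members without a methylated call on the odd lines, clone 1 minus even lines was 0.591, 0.690, 6.81 and -0.376 points. Clone 2 minus even lines was 0.667, 1.46, 5.75 and 7.21 points there. How far the choice sets these gaps was not tested.

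**Figure D5:**
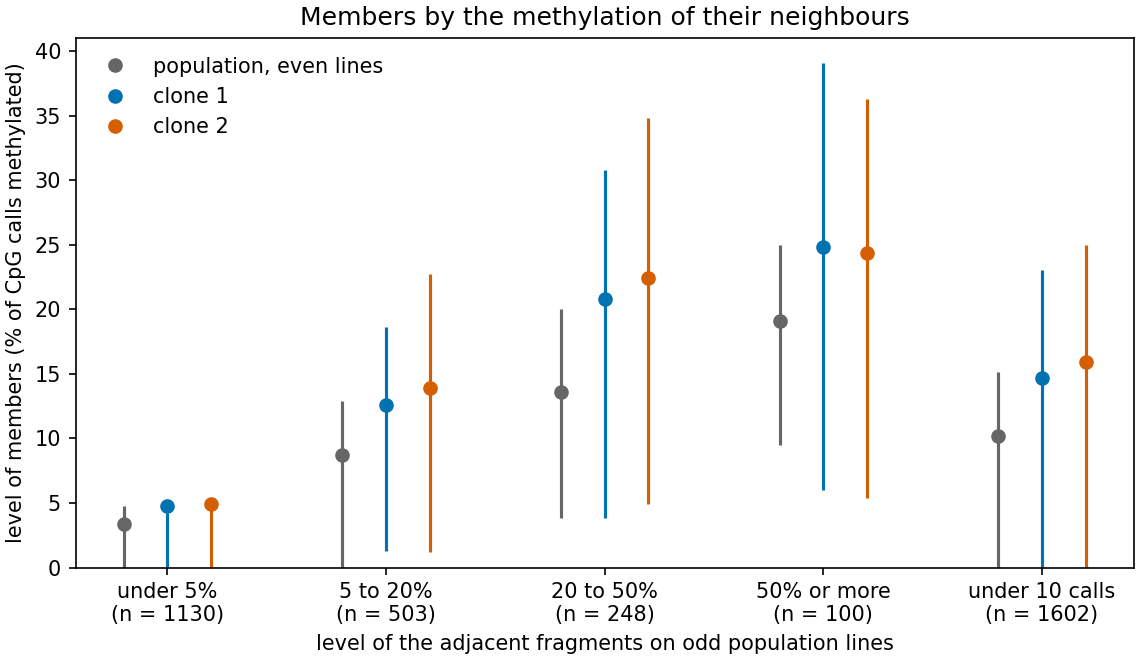
Mean level of members in percent (y axis) on the population's even lines and in clone 1 and clone 2, by the level of their neighbours' CpGs that are not shared, on the population's odd lines (x axis). The lowest values, 3.38, 4.79 and 4.96%, belong to neighbours under 5%, and the widest gap between clones and population to neighbours at 20 to 50%.

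Neighbours of members that were high in a clone were also higher in that clone. Beside the 95 members at 50% or more in clone 1 that had neighbour calls, of 188, the neighbours averaged 27.5% in the population and 44.1% in clone 1. In clone 2 the 84 such members, of 206, had neighbours at 25.9% in the population and 51.0% in the clone. Beside members under 20% the same values were 8.19 and 9.45% for clone 1, and 7.77 and 9.51% for clone 2. Consecutive members were rare, with 112 pairs in all, of which 2 had both members at 50% or more in clone 1 and 2 in clone 2.

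Against denser unmethylated fragments, members had higher levels and wider differences. Unmethylated fragments with 5 to 9 CpGs (11976), chosen by the same rule, averaged 4.95% on the even lines, 6.93% in clone 1 and 7.62% in clone 2. Those with 10 to 19 CpGs (17146) averaged 2.78, 3.65 and 3.82%. The clones exceeded the even lines by 3.64 and 4.53 points in members, 1.98 and 2.67 points at 5 to 9 CpGs, and 0.869 and 1.03 points at 10 to 19. Methylated fragments with 2 to 4 CpGs (52979) averaged 92.4, 92.5 and 93.2%. Intermediate ones (14464, 20 to 80% on the odd lines) were 2.10 and 3.95 points higher in the clones than on the even lines. Over the whole series the clones were 0.958 and 1.70 points higher. Odd lines minus even lines was -2.68 points in members, -0.700 at 5 to 9 CpGs and -0.206 at 10 to 19. How far the choice on the odd lines sets the gaps to the clones was not tested. These values stand side by side with no test, because each group is 1 library.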

How the data were processed

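Per the labels' protocols, MspI-digested DNA was ligated into plasmids with molecular tags and bisulfite converted, so that unmethylated cytosines read as thymine. Bismark and the build mm9 are named in the submitters' processing notes. Its version and filters were not given in the sources used here. In the deposited files each line holds a fragment number, a strand, a tag, a string of CpG calls and the authors' read count of that tag. The counts are not normalized. Each line was taken as 1 molecule. Fragments carry no coordinates or gene names here, so no sequence or annotation is given.

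Members and comparisons were chosen with earlier results of these data known. A molecule was methylated when over 50% of its observed CpGs were. Two-sided Fisher's exact tests per fragment were adjusted by Benjamini-Hochberg over all 160499 fragments. Named members are, per comparison and direction, the 5 called members with the widest differences, the 2 members with the most molecules for each CpG number, and the 2 fragments nearest each side of the 20% threshold. Members called in both clones were named after their values were seen. Intervals are 95% Wilson intervals. They cover counting error only. Alternatives changed the molecule minimum, the population lines that chose members, the level threshold, the rule for a methylated molecule, the reads per molecule and the unit of the test. Python 3.11.15, NumPy 2.4.6, SciPy 1.17.1, pandas 2.3.3 and Matplotlib 3.10.9 were used, and the tests were tried on simulated data.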

Additional observations from a re-analysis of the deposited data

Results flagged for a closer look

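The clones differed from each other in members on both sides, by Fisher's exact test on molecules with Benjamini-Hochberg adjustment over all fragments: 59 members were higher in clone 1 and 69 were higher in clone 2. These were 1.65 and 1.93% of members, against 1.91 and 2.29% of all fragments tested. Among members also called against the population in the higher clone, the 4 widest differences, as clone 1 minus clone 2 in percentage points of methylated molecules, were -94.1 in fragment 689517, -88.7 in fragment 976246 and -73.3 in fragment 386194, all higher in clone 2, and 76.2 in fragment 1479265, higher in clone 1. Each clone is a single founder cell in 1 pooled library, so a difference between clones and a difference between their libraries cannot be told apart.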

How the results depend on the processing

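Of 65 alternatives, 33 left a count within 1.5 times, or a mean or share within its 95% Wilson interval, and 32 moved it. For mean levels that interval took the members' total molecules as its count. It leaves out the spread over members, so for means this label is only a rough guide. With at least 20 molecules in each clone and 10 on each set of population lines (1242 members), 39 and 36 members were called higher in clone 1 and in clone 2 against each other, so the order of the 2 counts turned from 59 and 69, and clone 1 averaged 12.5%. Choosing members on the even lines (3603) called 1 lower in clone 1, which was neither of the 2 members called before. Its other counts were close to those reported, with 7 of the 18 and 9 of the 14 members higher in clones 1 and 2, and 42 of the 59 and 35 of the 69 between the clones, shared. A threshold of 10% (2594 members) gave 5 higher and 0 lower in clone 1, 5 higher in clone 2, and 24 and 24 between the clones, equal counts. Counting a molecule as methylated with any methylated CpG gave 42 higher and 0 lower in clone 1, 37 higher in clone 2, and 121 and 174 between the clones. Molecules with at least 2 reads left 367 members, with 0 higher and 0 lower in clone 1, 0 higher in clone 2, and 1 and 3 between the clones. There the mean levels were 10.9, 16.2 and 16.4%, the shares with 3 or more of 5 methylated were 6.43% in clone 1 and 7.97% in clone 2, and the shares of fully methylated molecules were 9.77% in the population and 15.5% in clone 2. Fewer fragments and molecules enter under the stricter minimums. Otherwise the cause was not tested. For the alternatives so far, calls over all fragments were not counted. Whether a changed count is particular to members was therefore not tested. A test per CpG, chosen after seeing the data, called 57 members higher and 5 lower in clone 1, 57 and 1 in clone 2, and 214 and 250 between the clones. Leaving out far-end calls or the shared CpG, also chosen after seeing the data, moved no value. No paired analysis was possible because the 2 replicates of a clone share 1 deposited file, and leaving out a replicate was not run for that reason. At the median of 11 population molecules, a call against 0 methylated ones needed 66.7% in clone 1 or 71.4% in clone 2.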
